A study of Mus musculus with 2 samples.

Results

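The 9 genes described are the D-type cyclins Ccnd1, Ccnd2 and Ccnd3, the kinases Cdk4, Cdk6 and Cdk2, and the later cyclins Ccne1, Ccna2 and Ccnb1. They were chosen by name from the 27998 genes of the count matrices. A cyclin-dependent kinase acts once a cyclin binds it. D-type cyclins pair with Cdk4 or Cdk6 in G1 phase and phosphorylate the retinoblastoma protein, which releases E2F factors. Cyclin E, encoded by Ccne1, then pairs with Cdk2 at the start of DNA replication, cyclin A follows through S phase, and cyclin B drives entry into mitosis. D-type cyclins are made in different combinations by different lineages, and cyclin D3 is known for its role in the divisions of red cell precursors, for which the fetal liver is the main site at midgestation.

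The cells came from 1 wild-type C57BL/6 (C57BL/6J in the study's methods) mouse liver at E12.5, freed of debris, dead cells and doublets by cell sorting and captured as 2 technical replicate libraries on the Chromium droplet system. The series description speaks of separate cell suspensions, and both libraries are treated here as repeats from 1 animal, so no test between animals was possible and no p-value is given. The deposited cell table names 9 cell types: HPSC (its spelling for haematopoietic stem and progenitor cells), Ery and Eryb (earlier and later definitive erythroid cells, divided into clusters Ery 1 to Ery 2 and Ery 3 to Ery 6), EryP (primitive erythroid cells), Mk (megakaryocytes), G (granulocytes), Mo/KC (monocytes and Kupffer cells), Hepa (hepatoblasts) and EC (endothelial cells). Each droplet's transcripts were counted as unique molecular identifiers (UMIs), and a level is given as counts scaled to 1000000 UMIs of a cell type (CPM) for each library, with a 95% exact Poisson interval that covers counting error only. A difference is described as larger than this error where the intervals did not overlap in either library. Levels of different genes were compared as UMIs with no division by transcript length, since each molecule is counted once, and differences in capture between genes were not tested. Only RNA was counted, so use of a cyclin or kinase refers here to its RNA. Protein, pairing and kinase activity were not measured.

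Library 1 held 5480 named cells with 51969226 UMIs and library 2 held 5057 cells with 62738015 UMIs. The median cell had 6261 and 9774 UMIs, and the lowest kept cell had 504 and 4387. Per cell type and library the cells ranged from 20 endothelial cells in library 1 to 3820 Eryb cells in library 1, with 213 and 208 HPSC. No further doublets were removed, and 31 barcodes occurred in both libraries, 18 of them with the same cell type. Of 32 cell type markers, 28 were highest in their own type in both libraries. The exceptions were Myb, highest in G, Gata1, highest in Mk, and Klf1 and Car1, which were highest in Eryb in library 1. Adult and embryonic globin transcripts took 1.07% and 2.37% of the UMIs of Ery 1 and 58.1% and 78.5% of those of Ery 6 in libraries 1 and 2, so late erythroid levels are also given as non-globin CPM, scaled to 1000000 UMIs of genes other than these globins.

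On GRCm38 with the GENCODE vM21 annotation, Ccnd1 lies at chr7:144929931-144939925 on the minus strand, Ccnd2 at chr6:127125162-127152193 on the minus strand and Ccnd3 at chr17:47505051-47599691 on the plus strand. Cdk4 lies at chr10:127063534-127067920 and Cdk6 at chr5:3341485-3531008, both on the plus strand, and Cdk2 lies at chr10:128697939-128705031 on the minus strand. Ccne1 (chr7:38097984-38107534), Ccna2 (chr3:36564865-36572150) and Ccnb1 (chr13:100778650-100786570) are on the minus strand. No member overlapped another gene on its own strand. On the opposite strand Ccnd1, Ccnd3, Ccna2, Cdk2 and Cdk4 overlapped a protein-coding gene and Ccnd2 and Cdk6 overlapped antisense RNAs.

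RefSeq promoter sequences (GRCm38.p6, 250 bases before to 50 after a transcription start) were matched for 6 of the 9 members, Ccnd3 with 2 starts. Each was searched on both strands for TTTNGCGC (the E2F motif), TTTGAA (the cell cycle homology region of late cell cycle promoters), CCAAT (bound by NF-Y), GATAA (bound by GATA factors) and CACGTG (the E-box bound by the Myc family, which reads the same on both strands). No match of one motif overlapped a match of another in the sequences printed. The promoters of Cdk4 and Cdk6 are shown because the use of these kinases is compared in each lineage, and matches are in capitals:
Cdk4, chr10:127063285-127063584, plus strand: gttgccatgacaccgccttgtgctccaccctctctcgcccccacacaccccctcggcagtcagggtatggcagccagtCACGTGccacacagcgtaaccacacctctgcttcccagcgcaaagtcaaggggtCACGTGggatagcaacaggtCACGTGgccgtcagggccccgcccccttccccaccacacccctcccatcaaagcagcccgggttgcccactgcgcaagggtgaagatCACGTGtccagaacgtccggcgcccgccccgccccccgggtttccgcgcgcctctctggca
Cdk6, chr5:3343643-3343942, plus strand: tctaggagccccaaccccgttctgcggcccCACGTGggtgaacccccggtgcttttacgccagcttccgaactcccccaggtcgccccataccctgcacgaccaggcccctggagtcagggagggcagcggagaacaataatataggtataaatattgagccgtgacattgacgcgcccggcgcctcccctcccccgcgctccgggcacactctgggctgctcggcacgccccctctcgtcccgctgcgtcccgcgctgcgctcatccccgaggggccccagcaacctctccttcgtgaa
Cdk4 held 4 places with CACGTG and Cdk6 held 1. Of 32851 promoters of the same length, 7.15% held at least 1 and 0.0244% held at least 4. The downstream start of Ccnd3, the D-type cyclin with the most UMIs, and the start of Ccnb1, the mitotic cyclin, are shown for CCAAT:
Ccnd3, chr17:47593217-47593516, plus strand: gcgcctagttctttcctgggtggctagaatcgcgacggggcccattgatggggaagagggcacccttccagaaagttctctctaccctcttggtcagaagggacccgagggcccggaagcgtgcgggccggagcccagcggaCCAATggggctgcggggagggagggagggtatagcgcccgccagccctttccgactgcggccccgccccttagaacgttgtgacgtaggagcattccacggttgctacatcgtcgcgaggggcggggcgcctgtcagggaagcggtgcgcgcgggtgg
Ccnb1, chr13:100786437-100786736, minus strand, read 5′ to 3′ along the gene: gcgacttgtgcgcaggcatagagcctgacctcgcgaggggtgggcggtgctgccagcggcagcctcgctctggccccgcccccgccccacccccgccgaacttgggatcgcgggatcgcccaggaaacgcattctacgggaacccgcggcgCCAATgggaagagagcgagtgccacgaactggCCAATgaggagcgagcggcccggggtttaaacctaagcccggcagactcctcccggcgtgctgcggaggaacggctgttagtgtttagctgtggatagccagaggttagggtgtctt
CCAAT was present at 1 place in the Ccnd3 window and at 2 places in the Ccnb1 window, against 37.4% of all promoters with at least 1 and 11.7% with at least 2. Cdk2 also held 1 CCAAT, and the upstream start of Ccnd3, Ccne1, Cdk4 and Cdk6 held none. TTTNGCGC, TTTGAA and GATAA had no match in any of the windows searched. A match is a description of the letters and no evidence of binding.

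Ccnd3 gave the most D-type cyclin UMIs in each of the 9 cell types in both libraries, and Cdk4 gave more UMIs than Cdk6 in each of them. The Ccnd3 share stood apart from those of the other D-type cyclins, with intervals that did not overlap in either library, in 8 of 9 types. The exception was the hepatoblasts. RNA free in the suspension was not subtracted for this count. In HPSC at most 118 of 833 Ccnd3 UMIs in library 1 and 82.0 of 726 in library 2 could be free RNA. For Ccnd2 the values were 7.82 of 651 and 6.34 of 592. Whether the HPSC intervals stay apart without these UMIs was not tested. What differed between lineages was the companion of Ccnd3. It was mainly Ccnd2 in HPSC and the first erythroid cells and, at smaller shares, in megakaryocytes and granulocytes. Mo/KC held smaller shares of both Ccnd2 and Ccnd1. Hepatoblasts and endothelium had mainly Ccnd1, and late erythroid cells had almost no companion.

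In HPSC all D-type cyclins were present. Of 1686 D-type cyclin UMIs in library 1, Ccnd3 made up 49.4% (95% exact binomial interval 47.0 to 51.8), Ccnd2 38.6% and Ccnd1 12.0%. Of 1453 in library 2 the shares were 50.0% (47.4 to 52.6), 40.7% and 9.29%. Ery 1, the least mature erythroid cluster, kept the Ccnd2 share at 31.3% and 30.3% but had almost no Ccnd1, with 0.549% and 0.573%. In Ery 2 Ccnd3 already made up 93.2% and 92.2%, and from Ery 3 to Ery 6 it made up between 98.2% and 99.9%. The primitive erythroid cells likewise held 147 Ccnd3 UMIs of 149 in library 1 and 114 of 114 in library 2.

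**Figure D1:**
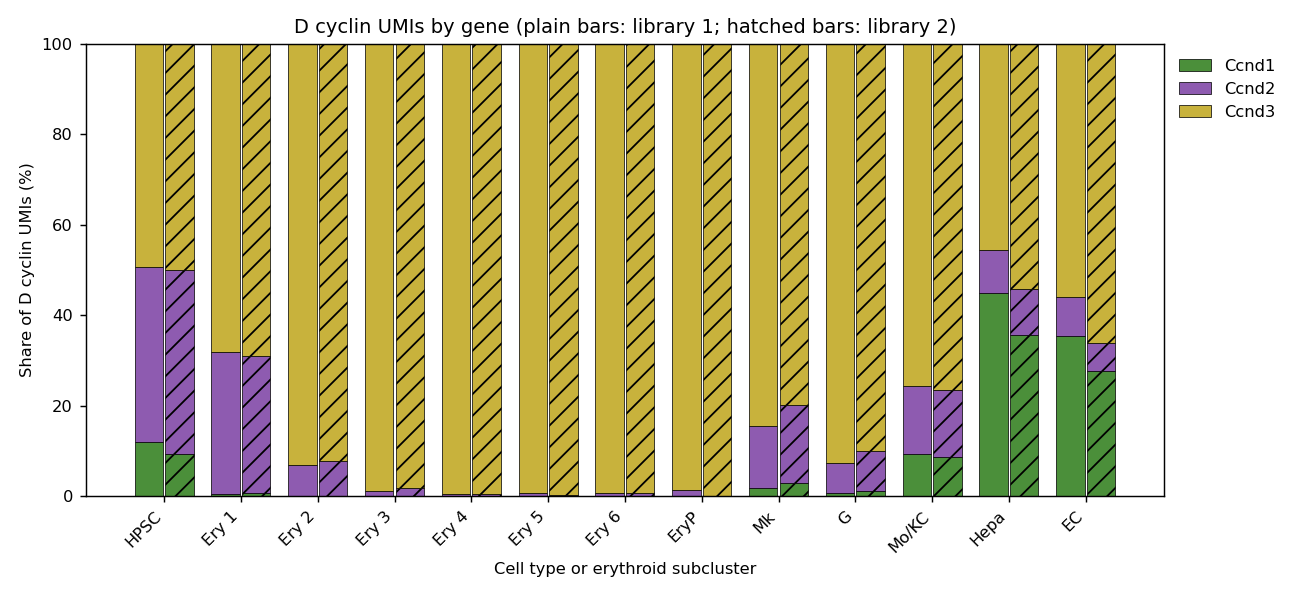
Share of D-type cyclin UMIs (y axis, percent) taken by Ccnd1 (green), Ccnd2 (purple) and Ccnd3 (yellow) in each cell type and erythroid cluster (x axis), with plain bars for library 1 and hatched bars for library 2. Ccnd3 takes 49.4% and 50.0% in HPSC and nearly all of Ery 3 to Ery 6, Ccnd2 is largest in HPSC and Ery 1, and Ccnd1 is largest in Hepa (44.9% and 35.6%) and EC (35.5% and 27.7%).

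Granulocytes resembled Ery 2 in composition, with 92.7% and 90.1% Ccnd3 and the rest nearly all Ccnd2. Megakaryocytes held 84.5% and 79.7% Ccnd3, and monocytes and Kupffer cells 75.6% and 76.6%, with both other D-type cyclins detected. In hepatoblasts Ccnd3 (45.7%, 39.7 to 51.7) and Ccnd1 (44.9%, 39.0 to 51.0) could not be separated in library 1, while in library 2 Ccnd3 was higher at 54.1% (48.7 to 59.5) against 35.6% (30.5 to 40.9), so no leading D-type cyclin is named for this type. In endothelial cells Ccnd3 led with 56.0% and 66.2% against 35.5% and 27.7% for Ccnd1, counted in only 20 and 26 cells. In library 1 up to 14.6% of endothelial UMIs could be RNA free in the suspension. That share would bring 17.3 of the 93 Ccnd3 UMIs but 0.446 of the 59 Ccnd1 UMIs. Whether the 2 shares stay apart in library 1 without these UMIs was not tested.

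Ccnd3 gave more UMIs than Ccnd1 in endothelial cells, while in library 1 hepatoblasts they were not separated (126 and 124 UMIs). Among the cell types Ccnd1 was highest in these non-blood cells. Its level was 225 CPM (171 to 290.4) and 153 CPM (123 to 189) in endothelial cells and 194 CPM (161 to 231) and 149 CPM (124 to 179) in hepatoblasts, which did not differ from each other beyond counting error. Both types lay above HPSC, with 58.6 CPM (50.8 to 67.2) and 43.2 CPM (36.2 to 51.1), and HPSC did not differ from Mo/KC, with 48.6 and 40.7 CPM. Megakaryocytes followed with 14.3 and 19.7 CPM, and granulocytes with 3.17 and 4.75 CPM. In the erythroid clusters Ccnd1 nearly vanished: Ery 1 had 1.62 CPM (0.926 to 2.63) and 1.72 CPM (0.985 to 2.80), 36.1-fold and 25.1-fold below HPSC. If free RNA made up an assumed 10% of a cell's UMIs it would bring 11.5 and 5.68 Ccnd1 UMIs to Ery 1. There 16 were found in each library, so at that share the library 1 level was not above background within counting error. In Ery 2 of library 1 that share would bring 10.7 Ccnd1 UMIs, and none was found. The assumed share was thus too high in Ery 2, and at a smaller share the Ery 1 level could lie above background. Ery 2 had no Ccnd1 UMI in library 1, which allows up to 0.327 CPM at 3 counts, and 0.345 CPM in library 2, and EryP had none in either library, which allows up to 3.13 and 3.11 CPM.

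Cells differ in depth, so shares of cells with a UMI were compared after each cell was thinned to 3600 UMIs. Cells with fewer UMIs were left out of the thinned shares, while the unthinned shares cover all cells. Ccnd1 was then seen in 16.4% and 12.3% of HPSC (unthinned 44.1% and 37.0%) and in 56.6% and 49.8% of endothelial cells (unthinned 90.0% and 88.5%). Among HPSC thinned once to this depth, 35 and 26 cells held a Ccnd1 UMI, a split chosen after the values were seen. Ccnd2 stood at 286 and 256 CPM in the cells with Ccnd1 against 196 and 182 CPM in the others, with intervals that overlapped in both libraries. The endothelial and hepatoblast markers of the list held at most 2 UMIs each per library in the HPSC with Ccnd1. Cldn5, Cdh5 and Kdr had no UMI, with intervals that reach 29.3 CPM in library 1 and 39.4 CPM in library 2. Pecam1 had 2 UMIs in each library, and Apoa1 had 2 in library 1.

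Ccnd2 was highest in HPSC at 189 CPM (175 to 204) and 189 CPM (175 to 205), above megakaryocytes at 116 and 121 CPM with no overlap of the intervals. Mo/KC had 78.1 and 70.0 CPM, Hepa 40.6 and 43.2 CPM, EC 53.4 and 33.5 CPM and G 27.0 and 35.3 CPM. Along the erythroid clusters Ccnd2 was lower at each step to Ery 3: 92.4 and 91.1 CPM in Ery 1, 35.0 and 35.0 CPM in Ery 2 and 12.9 and 15.8 CPM in Ery 3. Ery 4 had 4.02 and 1.99 CPM, from 32 and 23 UMIs against 23.8 and 35.3 that the assumed 10% of free RNA would bring. In Ery 5 and Ery 6 it lay between 0.171 and 2.74 CPM. From Ery 4 on Ccnd2 was not above this assumed background in either library. Ery 5 of library 2 held 1 Ccnd2 UMI where 10% would bring 17.9, so the assumed share was too high there. At a smaller share the Ery 4 level could lie above background.

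Ccnd3 reached its highest levels among erythroid cells and megakaryocytes. It rose from 201 CPM (193 to 210.4) and 208 CPM (199 to 218) in Ery 1 to 479 and 416 CPM in Ery 2 and 1124 CPM (1100 to 1148) and 878 CPM (858 to 899) in Ery 3, then stood at 952 and 682 CPM in Ery 4, 450.2 and 282 CPM in Ery 5 and 338 and 200.2 CPM in Ery 6. Ery 1 was below HPSC (242 and 232 CPM) in library 1 and overlapped it in library 2, so on this scale the increase came after Ery 1. As non-globin CPM the peak moved to Ery 4, with 1497 and 1594, and Ery 6 held 806 and 931, still above Ery 1. Per cell, HPSC held 3.91 and 3.49 Ccnd3 UMIs and Ery 1, whose cells have more UMIs, already 5.30 and 5.38, Ery 3 held 11.6 and 11.2, and Ery 6, whose cells have few UMIs, held 1.58 and 1.69. Thinned to 3600 UMIs, 97.2% and 92.4% of Ery 3 cells had a Ccnd3 UMI (unthinned 99.1% and 97.8%), against 56.8% and 52.6% of HPSC.

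Outside the erythroid series megakaryocytes had the most Ccnd3, at 709 CPM (651 to 771) and 554 CPM (509 to 602). This was 2.94-fold and 2.39-fold the HPSC level. The free RNA of the suspension, read from barcodes with 1 to 50 UMIs, held Ccnd3 at 452 and 396 CPM, and from the globin Hbb-bs at most 7.32% and 12.6% of megakaryocyte UMIs could be free RNA. G, Mo/KC and EC lay between 355 and 393 CPM and did not differ from each other beyond counting error, and EryP was lowest with 153 and 118 CPM. As non-globin CPM, EryP stood at 658 (556 to 773) and 676 (558 to 812), above HPSC, G, Mo/KC, EC and Hepa. Free RNA was not subtracted from these values. An assumed share of 10% would bring 43.3 of the 147 Ccnd3 UMIs of EryP in library 1 and 38.2 of 114 in library 2. Whether the order holds without them was not tested.

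Cdk4 was more abundant than Cdk6 wherever either lay above the free RNA level, and the order of the cell types differed between Cdk4 and Cdk6. Cdk4 stood at 922 CPM (889.9 to 954) and 854 CPM (822 to 887) in HPSC, 698 CPM (601 to 807) and 905 CPM (828 to 987) in EC and 770.2 and 719.5 CPM in Ery 1, then between 423 and 545 CPM in Hepa, Mk, G and Mo/KC. Cdk6 was highest in HPSC, with 125 CPM (114 to 138) and 148 CPM (135 to 163), and did not differ there from granulocytes, with 106 CPM (91.6 to 121) and 138 CPM (122 to 156). Ery 1 had 124 and 126 CPM. Mk, Hepa and Mo/KC lay between 31.6 and 42.4 CPM, and EC had 11.4 and 22.9 CPM.

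Cdk6 thus made up 18.3% (16.1 to 20.8) and 22.5% (20.1 to 25.0) of the Cdk4 and Cdk6 UMIs in granulocytes, 13.9% and 14.9% in Ery 1, 12.0% and 14.8% in HPSC, and 1.61% and 2.47% in endothelial cells. In the remaining types outside the erythroid series it made up 6.32% to 7.76%. In EryP the pair had only 19 and 10 UMIs, 3 and 1 of them Cdk6. Cdk4 itself was there at 16.7 and 9.32 CPM, at or below the assumed free RNA level. Which of the 2 kinase genes primitive erythroid cells express could therefore not be read from these counts.

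**Figure D2:**
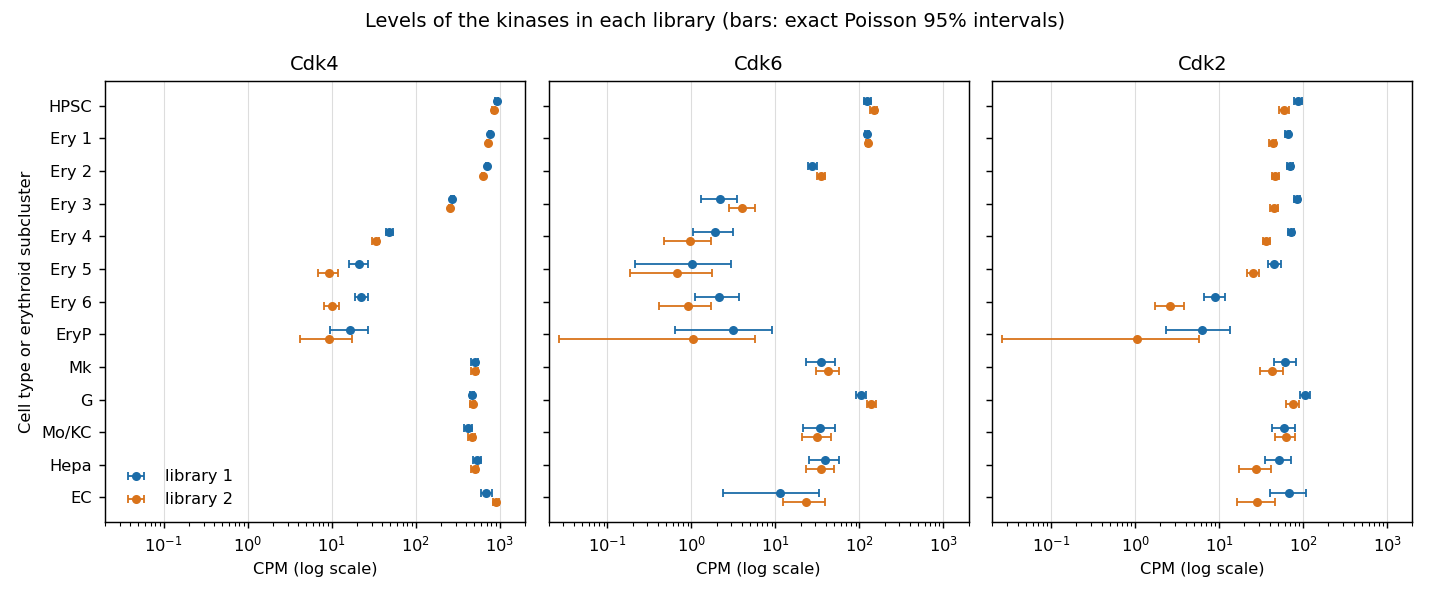
Levels of Cdk4, Cdk6 and Cdk2 (x axes, CPM on a log scale) in each cell type and erythroid cluster (y axis), with 1 point per library and bars for the 95% exact Poisson interval. Cdk4 lies above Cdk6 in every group, with 922 and 854 CPM in HPSC and 16.7 and 9.32 CPM in EryP, and Cdk6 is high in HPSC, Ery 1 and G.

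Cdk2, the partner of cyclins E and A, was present in every type outside the erythroid series. It was highest in granulocytes with 106 CPM (91.6 to 121) and 74.9 CPM (63.1 to 88.3), next to HPSC with 87.6 and 59.2 CPM, whose intervals overlapped those of granulocytes. Mo/KC, Mk, EC and Hepa ranged from 27.2 to 68.7 CPM. In the erythroid series Cdk2 stood at 67.1 and 45.1 CPM in Ery, 57.7 and 27.1 CPM in Eryb and 6.26 and 1.04 CPM in EryP. In Ery 4 it gave more UMIs than Cdk4, with 569 and 419 against 389 and 386. Over all named cells Cdk2 had 3325 UMIs in library 1 and 2236 in library 2, which as a ratio was the largest difference between libraries among the 9 members.

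Both D-type cyclin kinases were lower at Ery 3 than at Ery 1, while Ccnd3 was higher at Ery 3. From Ery 3 to Ery 5 both Cdk4 and Ccnd3 fell as CPM of all UMIs. Cdk4 stood at 707 and 634 CPM in Ery 2, 275 and 259.9 CPM in Ery 3, 48.9 and 33.5 CPM in Ery 4, and 21.2 and 9.22 CPM in Ery 5. Cdk6 fell earlier, to 27.5 and 34.8 CPM in Ery 2 and 2.21 and 4.03 CPM in Ery 3. Cdk4 counts in Ery 5 and Ery 6 did not exceed what an assumed 10% of free RNA would bring (in Ery 6, 129 UMIs against 174 in library 1 and 99 against 249.7 in library 2), and the same held for Cdk6 from Ery 4 on. Counts this far below what 10% would bring mean that the assumed share was too high there. These late levels are therefore not resolved from background. At the assumed share, Cdk4 was the only D-type cyclin kinase above the free RNA level in both libraries in Ery 3 and Ery 4, where Ccnd3 was highest.

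As CPM, Ccne1 peaked in an earlier cluster than Ccna2 and Ccnb1, which peaked in the same one. Ccne1 was highest in Ery 2 with 242 CPM (233 to 253) and 224 CPM (214 to 234), above Ery 1 at 163 and 162 CPM and Ery 3 at 162 and 154 CPM, and was at 24.3 and 13.3 CPM in Ery 5. Ccna2 was highest in Ery 5, with 754 CPM (723 to 786) and 389 CPM (373 to 405). Ccnb1 was also highest in Ery 5, with 542 CPM (515 to 569) and 298 CPM (284 to 312), and both fell in Ery 6, to 150.0 and 82.2 CPM for Ccna2 and 132 and 65.2 CPM for Ccnb1. Ccna2 and Ccnb1 levels in library 2 were lower than in library 1 in the late clusters, where its globin share was higher. As non-globin CPM, Ery 5 held 1543 and 1458 for Ccna2 and 1108 and 1118 for Ccnb1. Per cell these peaks were not seen, and both genes were lower in Ery 5 than in Ery 1. Ccna2 had 2518 and 2160 UMIs in 375 and 359 Ery 1 cells, against 2202 and 2277 in 497 and 590 Ery 5 cells. Ccnb1 had 1762 and 1607 UMIs in Ery 1 against 1582 and 1746 in Ery 5. Ccne1 in library 1 was no higher per cell in Ery 2 (2227 UMIs, 557 cells) than in Ery 1 (1614 UMIs).

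**Figure D3:**
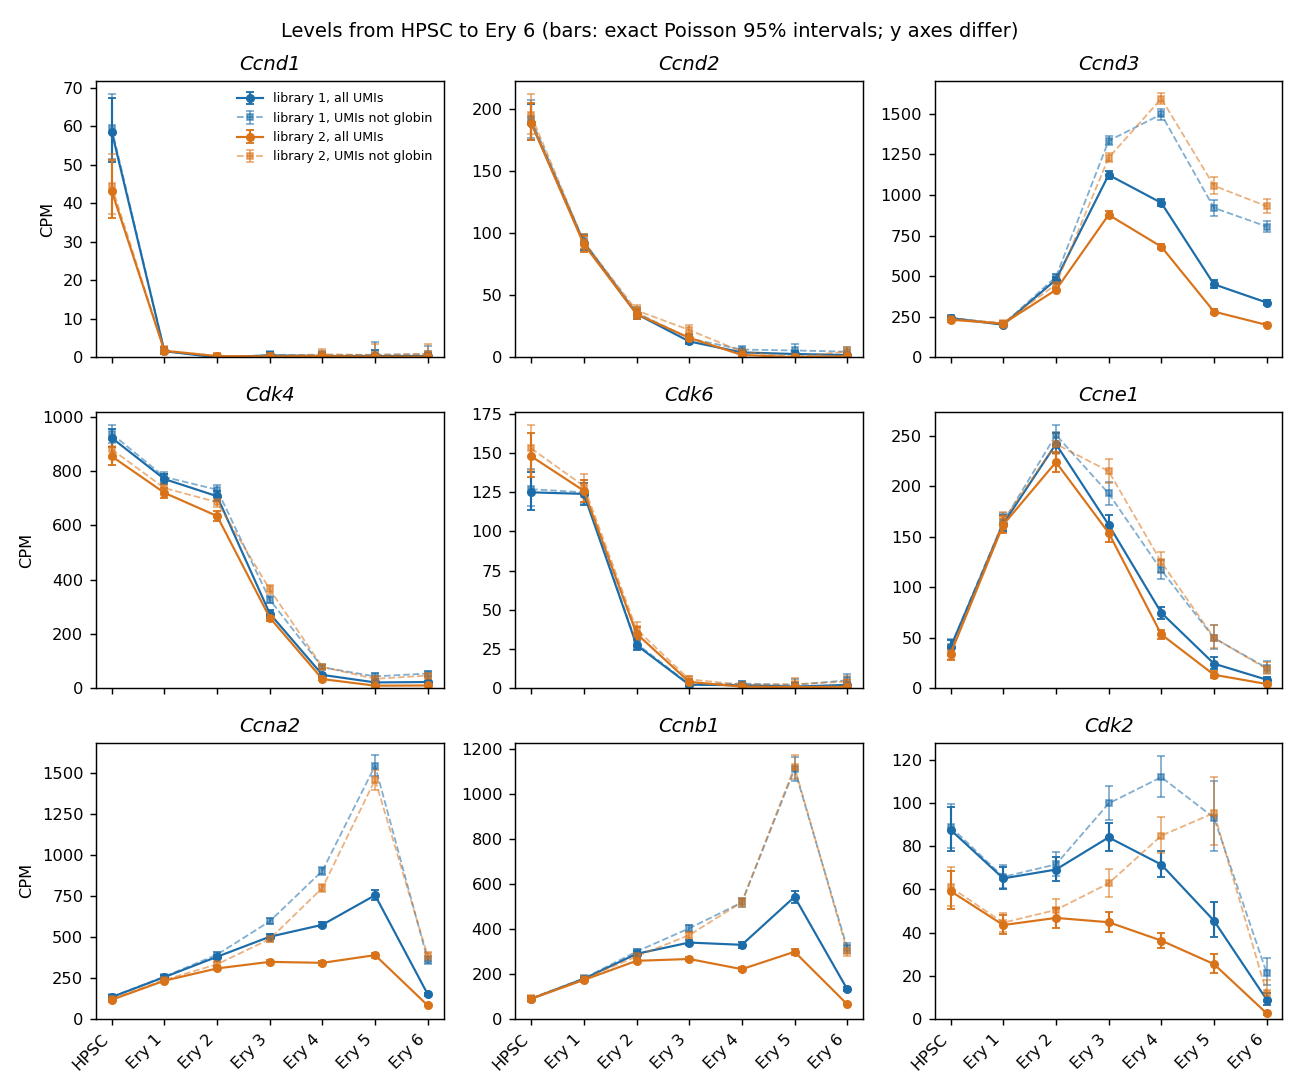
Levels of the 9 members (y axes, CPM, which differ between panels) from HPSC through Ery 1 to Ery 6, with solid lines for CPM of all UMIs, dashed lines for non-globin CPM, 1 colour per library and bars for the 95% exact Poisson interval. Ccnd2 and Cdk4 decline from HPSC on, Cdk6 from Ery 1 on, Ccne1 peaks in Ery 2 (242 and 224 CPM), Ccnd3 peaks in Ery 3 (1124 and 878 CPM) or, as non-globin CPM, in Ery 4, and Ccna2 and Ccnb1 peak in Ery 5.

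The clusters were made by the authors from these cells, so the definitive erythroid cells were also ordered by the share of adult globin in their UMIs and divided into 10 groups of equal size within each library. This measure uses none of the members. Cdk4 was highest in group 1 with 784 and 739 non-globin CPM, and Ccne1 in group 2 with 259 and 251. Ccnd3 followed in group 5, at a median adult globin share of 31.3% and 55.9%, with 1663 and 1684. Ccna2 peaked in group 7 with 1108 and 1039 and Ccnb1 in group 8 with 738 and 828, and both were low in group 10, with 274 and 269 for Ccna2 and 156 and 154 for Ccnb1. On this scale the peaks fell in the same group in both libraries for each of these genes. No intervals were computed for the groups, and Ccna2 in group 8 was close to its peak, with 1046 and 988. Whether Ccna2 peaked before Ccnb1 was not tested. As CPM of all UMIs Ccnd3 peaked in group 4 (1177 and 880.3), while Ccna2 peaked in group 7 in library 1 (591) and in groups 4 and 5 in library 2 (353) and Ccnb1 in group 7 in library 1 (368) and group 2 in library 2 (264), so the order of the late peaks depends on the scale.

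**Figure D4:**
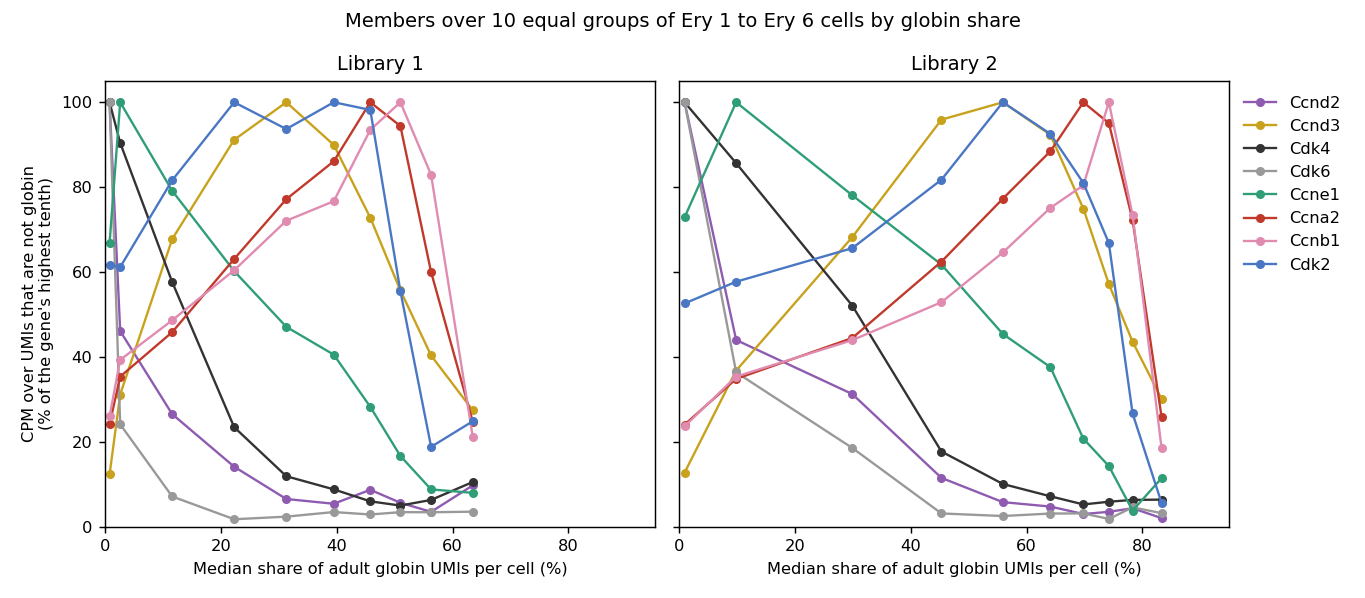
Non-globin CPM of 8 members, as a percent of each gene's highest group (y axis), in 10 groups of definitive erythroid cells placed at their median share of adult globin UMIs (x axis, percent), with 1 panel per library and 1 line per gene. Cdk4 is highest in group 1, Ccne1 in group 2, Ccnd3 in group 5 (1663 and 1684 non-globin CPM), Ccna2 in group 7 and Ccnb1 in group 8.

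Outside the erythroid cells Ccne1 was high in hepatoblasts, with 136 CPM (109 to 168) and 137 CPM (113 to 165), against 40.6 and 34.2 CPM in HPSC and 23.8 and 28.5 CPM in granulocytes. Ccna2 ranged from 117 to 206 CPM and Ccnb1 from 67.2 to 182 CPM over HPSC, Mk, G, Mo/KC, Hepa and EC. The order among these types was not resolved. Neighbouring levels of Ccna2 and Ccnb1 overlapped in at least 1 library from EC down to HPSC.

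Each cell type was set against HPSC, and Ery 6 against Ery 1, and members that differed at least 2-fold in both libraries were counted beside all genes with at least 10 CPM in 1 of the 2 groups in both libraries. The comparisons with HPSC share the HPSC cells. From HPSC to Ery 1, Ccne1 was higher (4.03-fold and 4.74-fold) against 5.75% of all genes tested, and Ccnd1 and Ccnd2 (2.04-fold and 2.08-fold) were lower against 13.6%. As mean UMIs per cell Ccnd2 was only 1.26-fold and 1.21-fold lower. From HPSC to G no member was higher (6.05% of all genes) and Ccnd1 and Ccnd2 were lower (5.62%). In Mk, Ccnd3 was higher (9.22%) and Ccnd1 and Cdk6 were lower (7.71%). In Mo/KC no member was higher (9.49%) and Ccnd2 and Cdk6 were lower (7.73%). In Hepa, Ccnd1 (3.31-fold and 3.46-fold) and Ccne1 (3.35-fold and 4.0-fold) were higher (12.0%), and Ccnd2 and Cdk6 were lower (16.7%). In EC, Ccnd1 was higher (3.84-fold and 3.55-fold, 14.4%), and Ccnd2 and Cdk6 were lower (7.89%). All 9 members were tested in these comparisons. With 0 to 2 members on either side, the counts are too small to say whether the members differ from all genes.

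From Ery 1 to Ery 6, 8 members had enough counts, Ccnd1 being below the limit. None was at least 2-fold higher (5.25% of all genes) and 5 were lower, Ccnd2, Cdk4, Cdk6, Ccne1 and Cdk2, against 78.2% of all genes, so a decline on this scale does not set the members apart. As non-globin CPM the same 5 were lower against 52.3% and Ccnd3 was higher (3.96-fold and 4.37-fold) against 17.1%. Ccna2 and Ccnb1 turned direction with the scale: their ratios of Ery 6 to Ery 1 were 0.588 and 0.353 and 0.741 and 0.377 as CPM of all UMIs, and 1.39 and 1.60 and 1.75 and 1.71 as non-globin CPM. The Ccnd3 ratio was 1.68 in library 1 and 0.962 in library 2 as CPM of all UMIs.

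A list of 44 other genes of the pathway included 7 Cdk inhibitors. The INK4 inhibitors, among them Cdkn2c and Cdkn2d, bind Cdk4 and Cdk6, and the Cip/Kip inhibitors Cdkn1a, Cdkn1b and Cdkn1c act on Cdk2 complexes. Cdkn2d rose from 30.0 and 34.8 CPM in Ery 1 to 136 and 81.4 CPM in Ery 3, 495 and 280.4 CPM in Ery 4 and 1132 CPM (1094 to 1172) and 541 CPM (523 to 561) in Ery 5, and was lower again in Ery 6 at 186 and 86.5 CPM. Its peak fell in the cluster with the most Ccna2 and Ccnb1 as CPM. Cdkn2c rose from 8.20 and 4.20 CPM in Ery 1 to 153 and 67.3 CPM in Ery 5, and was lower again in Ery 6 at 15.5 and 6.76 CPM. Cdkn1b rose from 2.43 and 2.91 CPM in Ery 1 to 29.3 and 16.5 CPM in Ery 6. Cdkn2a gave 1 UMI in all named cells.

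The other lineages differed in which inhibitor was high. Cdkn1c stood at 873 and 635 CPM in hepatoblasts, 252 and 397 CPM in endothelial cells and 240.2 and 536 CPM in megakaryocytes, against 37.4 and 37.1 CPM in HPSC, and it was 23.6-fold and 23.5-fold lower in granulocytes than in HPSC. Cdkn2d was also high in megakaryocytes, 9.06-fold and 7.07-fold above HPSC. Cdkn2c was 11.5-fold and 16.9-fold above HPSC in Mo/KC, 9.65-fold and 13.2-fold in EC and 3.77-fold and 6.26-fold in granulocytes. HPSC had little Cdkn2c, with 4.35 and 1.60 CPM from 15 and 5 UMIs, and EC had 11 and 12 UMIs. The Cdkn2c ratios to HPSC therefore rest on few counts. No free RNA background was estimated for the inhibitors.

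**Figure D5:**
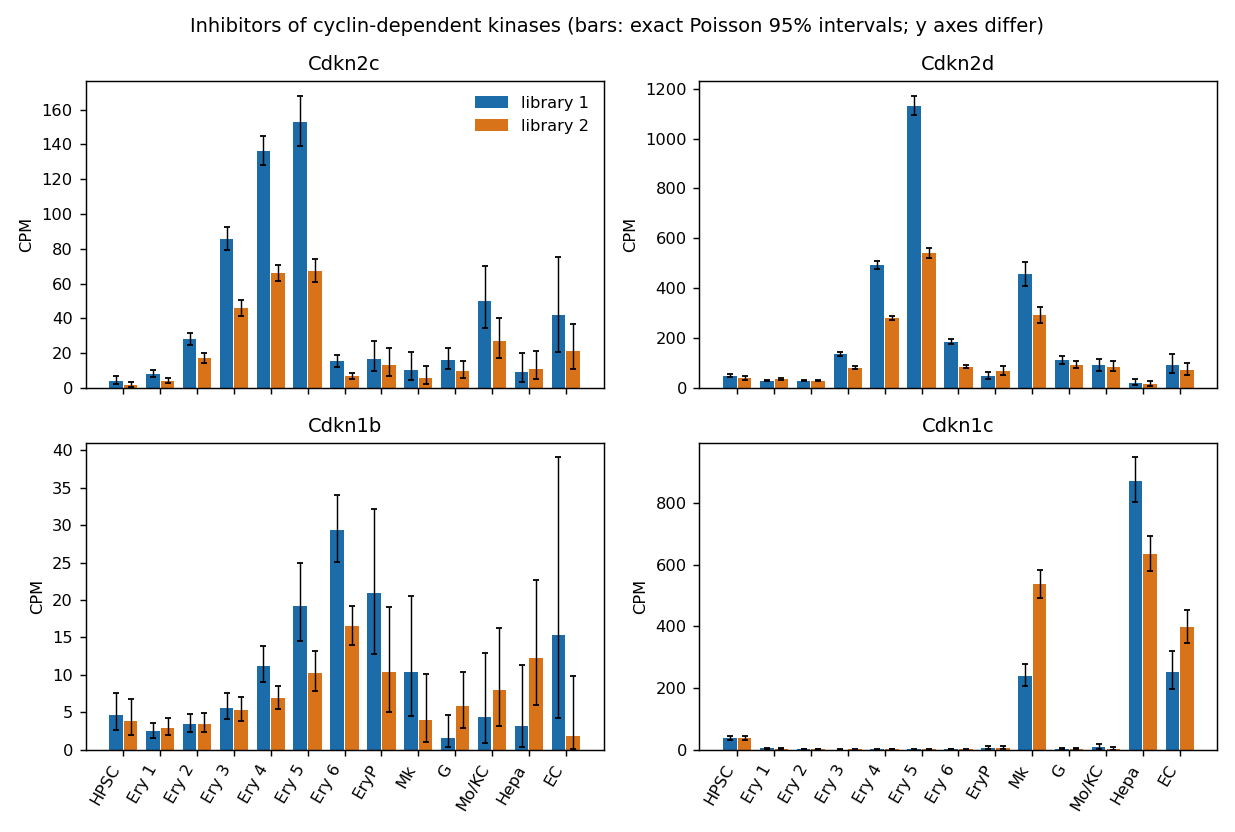
Levels of the Cdk inhibitors Cdkn2c, Cdkn2d, Cdkn1b and Cdkn1c (y axes, CPM, which differ between panels) in each cell type and erythroid cluster (x axes), with 1 bar per library and whiskers for the 95% exact Poisson interval. Cdkn2d is highest in Ery 5 (1132 and 541 CPM), Cdkn1b in Ery 6 in both libraries and Cdkn1c in Hepa (873 and 635 CPM).

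Among the other pathway genes, E2f4, a retinoblastoma-family partner, was the only one at least 2-fold higher in Ery 1 than in HPSC (2.07-fold and 2.32-fold), and Ccng2, Cdkn1a and Cdkn1c were lower, of 32 tested. From Ery 1 to Ery 6, 6 of 29 tested genes were higher and 18 were lower, against 5.25% and 78.2% of all genes. The higher genes were Ccng2, Cdkn1b, Cdkn2d, E2f2, Tfdp2 and the phosphatase gene Cdc25b, whose product activates Cdk complexes (24.2-fold and 10.9-fold). All 6 tested kinases and subunits other than the members were lower on this scale: Cdk1, the mitotic kinase, Cdk7, Ccnh and Mnat1 of the Cdk-activating complex, and Cks1b and Cks2. As non-globin CPM only Cdk7 and Ccnh of these were at least 2-fold lower. Cdc25a, which acts at the start of S phase, was 29.1-fold and 82.0-fold lower and E2f3 25.8-fold and 58.1-fold lower. Their Ery 6 levels rest on 10 and 6 Cdc25a UMIs and 3 and 2 E2f3 UMIs. On the non-globin scale Cdc25a was 12.3-fold and 18.1-fold lower and E2f3 10.9-fold and 12.8-fold lower. As non-globin CPM 10 of 32 pathway genes were higher and 9 lower, against 17.1% and 52.3% of all genes.

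Within HPSC the members differed by the cell cycle phase in the deposited cell table, which was scored from genes not given in the sources used here and may include members. Ccnb1 stood at 42.5 CPM (29.9 to 58.6) and 39.0 CPM (26.9 to 54.8) in cells called G1, 61.0 and 61.2 CPM in those called S, and 141 CPM (122 to 162) and 152 CPM (131 to 176) in those called G2M. Ccne1 stood at 56.3 CPM (41.6 to 74.4) and 33.1 CPM (22.0 to 47.9) in G1, 44.7 and 45.6 CPM in S and 27.6 CPM (19.6 to 37.7) and 24.5 CPM (16.4 to 35.2) in G2M, where the intervals of G1 and G2M overlapped in library 2. Ccnd2 (166 to 207 CPM) differed little between the phases. Ccnd3 in library 1 was higher in G1, at 285 CPM (250.4 to 323), than in G2M, at 221 CPM (197 to 247). In library 2 it stood at 251 CPM (218 to 287) and 220.4 CPM (194 to 249), with intervals that overlapped. In Ery 3 to Ery 6 of library 1 the phase calls carried little: only 1, 4, 1 and 4 cells had a G2M score above 0, against 88, 221, 92 and 223 in library 2, so phases are not compared in those clusters.

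Counts in single cells showed no exclusive use of Ccnd2 or Ccnd3 in HPSC. After thinning to 3600 UMIs, Ccnd3 was seen in 58.6% and 52.4% of HPSC with a Ccnd2 UMI and in 59.8% and 61.3% of those without. HPSC with a Ccnb1 UMI had Ccna2 at 253 CPM (182 to 343) against 93.7 CPM (70.8 to 122) without it in library 1, and at 176 CPM (119 to 249) against 97.8 CPM (73.9 to 127) in library 2, where the intervals overlapped. In Ery 1 and Ery 2 the intervals of the other members overlapped between cells with and without Ccnb1.

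The genes whose levels followed a member most closely over the 11 clusters of the deposited cell table, in which HPSC, G and Mo/KC are merged, were named by Pearson's r of log2(CPM + 1) among 6995 genes. For Ccnd1 they were Tubb6 (0.989), Marcks (0.984) and Mfge8 (0.983), for Ccnd2 Csk (0.987), Ube2e1 (0.985) and Hes6 (0.984), and for Cdk6 Ntpcr (0.981), Psmb10 (0.978) and Bri3bp (0.966). Ccnd3 had less close companions, Zfp101 (0.915), Plekho2 (0.915) and Herc2 (0.878). The clusters share libraries and depth, and these values are descriptions over few points.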

How the data were processed

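Droplet libraries of 2 technical replicates from 1 liver were analysed. Per the labels and the study's methods, the authors processed the reads with Cell Ranger 2.1.1 against mm10 and merged and clustered the cells with Seurat 3.2.0, and the submitters' processing notes also name bcl2fastq 2. The deposited matrices hold raw UMI counts per gene and barcode, and the deposited cell table holds the cell type, cluster, phase and the S and G2M scores that the authors computed, with no stated gene list. Cells were matched to the table by barcode and library. No per-sample column of another sample was present (0 columns).

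UMIs were summed per cell type or cluster and library and divided by all UMIs of those cells (CPM), or by UMIs that are not globin. Intervals are 95% exact Poisson for levels and ratios follow from conditional binomial limits; shares are Clopper-Pearson. A count of 0 was given the limit of 3 counts. Shares of cells are the mean over all ways of thinning a cell to 3600 UMIs, and splits by a gene use 1 draw (seed 1). Both leave out cells with fewer UMIs. A gene was past the fold where both libraries differed at least 2-fold in 1 direction, with at least 10 CPM in 1 group. Free RNA was read from barcodes with 1 to 50 UMIs. Its share in erythroid cells cannot be measured with globins and was assumed to be 10%. Some erythroid counts fell below what this share would bring, so it was too high for those clusters. Likeness used log2(CPM + 1) over genes with at least 20 CPM in 1 of 11 clusters, naming the 3 highest mean r. All members were named, with counts over 44 pathway genes, the most extreme ratios and the inhibitors. The members and lists were chosen with earlier results of these data known, and the Ccnd1 split, the levels by phase and the non-globin scale for all types were added after the values were seen. Alternatives were a filter on cells by genes and mitochondrial share, the deepest cells left out, free RNA subtracted, other depths and each library alone. Scripts were tested on simulated data and were run in Python 3.11.15, with figures drawn in matplotlib 3.10.9, tables handled in pandas 2.3.3, arrays in numpy 2.4.6 and intervals computed in scipy 1.17.1.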

Additional observations from a re-analysis of the deposited data

Results flagged for a closer look

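Members were also detected in barcodes that the deposited cell table does not name but that held at least 1000 UMIs and 200 genes, which no comparison above used. Library 1 had 168 such barcodes with 395815 UMIs, in which Ccnd3 stood at 743 CPM (660.3 to 833), above its level in the free RNA of that library, 452 CPM (423 to 483). Library 2 had 3311 such barcodes with 6739026 UMIs, in which Cdk6 stood at 57.4 CPM (51.8 to 63.4), above its free RNA level of 33.2 CPM (25.6 to 42.3). Which cells these barcodes hold was not tested.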

How the results depend on the processing

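With the libraries summed, Ccnd3 and Cdk4 gave the most UMIs of their family in each cell type under the alternatives that gave a value. In library 1 Hepa, subtracting free RNA (25.2 of 126 Ccnd3 UMIs and 0.648 of 124 Ccnd1 UMIs) left Ccnd1 ahead. With free RNA subtracted the Ccnd3 share was 46.5% in HPSC, 82.0% in Ery, 99.6% in Eryb, 100% in EryP and 45.6% in Hepa and the Cdk4 share 100% in Eryb, while both kinase genes were left at 0 in EryP, which gave no value. Without the deepest 4% of cells the Eryb shares were 99.3% for Ccnd3 and 97.5% for Cdk4. With 1 library alone the Cdk4 share ranged from 85.2% to 88.0% in HPSC, 89.2% to 90.5% in Ery and 77.5% to 81.7% in G, and the Ccnd3 share from 98.7% to 100% in EryP, 79.7% to 84.5% in Mk, 45.7% to 54.1% in Hepa and 56.0% to 66.2% in EC.

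The ratio of Ery 6 to Ery 1 depended most on the scale. With 1 library alone it was 0.962 to 1.68 for Ccnd3, 0.0139 to 0.0294 for Cdk4, 0.00721 to 0.0170 for Cdk6, 0.0255 to 0.0516 for Ccne1, 0.353 to 0.588 for Ccna2, 0.377 to 0.741 for Ccnb1 and 0.0603 to 0.138 for Cdk2, and library 2 alone turned the direction of Ccnd3 (0.962). Per UMIs that are not globin it was 0.521 for Ccnd1, 0.0498 for Ccnd2, 4.15 for Ccnd3, 0.0665 for Cdk4, 0.0365 for Cdk6, 0.119 for Ccne1, 1.49 for Ccna2, 1.73 for Ccnb1 and 0.307 for Cdk2. As mean UMIs per cell it was 0.0383 for Ccnd1, 0.00366 for Ccnd2, 0.306 for Ccnd3, 0.00489 for Cdk4, 0.00269 for Cdk6, 0.00874 for Ccne1, 0.109 for Ccna2, 0.127 for Ccnb1 and 0.0225 for Cdk2. In cells with at least 1000 genes and under 10% mitochondrial UMIs, which keeps 311 of 2394 Ery 6 cells, it was 0 for Ccnd1, 2.09 for Ccnd3, 0.0190 for Cdk6, 0.0643 for Ccne1, 1.06 for Ccna2, 1.67 for Ccnb1 and 0.216 for Cdk2. With free RNA subtracted it was 0 for Ccnd1, Ccnd2, Cdk4, Cdk6 and Ccne1, 1.29 for Ccnd3, 0.361 for Ccna2, 0.441 for Ccnb1 and 0.0228 for Cdk2. With the same lowest UMI count in both libraries Ccnd3 was at 1.15, and without the deepest 4% at 1.16, Ccna2 at 0.383 and Ccnb1 at 0.431. Ccnd3, Ccna2 and Ccnb1 therefore changed direction with the denominator or the cell filter, and Ccnd2, Cdk4, Cdk6, Ccne1 and Cdk2 were lower in Ery 6 under each alternative. At a minimum of 50 CPM, 1 member in place of 2 was past 2-fold from HPSC to G. Of 96 levels of at least 10 CPM, 20 moved by over 1.5 times as non-globin CPM, 6 under the filter on genes and mitochondrial UMIs, 7 with free RNA subtracted and 7 in library 1 alone, and none in library 2 alone or without the deepest cells.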
